A study of Mus musculus with 18 samples.

Results

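The effect of HPRT knockdown in mouse embryonic stem (ES) cells was compared between the undifferentiated stage and the spherical neural mass (SNM) stage, the floating clusters of neural precursors that the cells form on the way to dopaminergic neurons. The quantity followed here is a difference of differences: HPRT knockdown minus control at SNM, minus HPRT knockdown minus control at ES, in log2 units of normalized signal. It is called the stage difference below, and a rise means that the knockdown effect was higher at SNM than at ES. It contrasts 12 of the 18 arrays of the series, 3 in each of 4 conditions: Control (ES), HPRT knockdown (ES), Control (SNM) and HPRT knockdown (SNM). Of 45281 probes on the array, 22125 were tested, namely those detected (p-value under 0.05) on every array of any 1 of the 4 conditions.

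All cells were ESD3, a mouse ES line of strain 129s2/SvPas. Control cells carried a virally delivered short hairpin RNA (shRNA) against luciferase, and knockdown cells one against human HPRT, both selected with puromycin. ES cultures grew on primary mouse embryo fibroblast feeders with leukemia inhibitory factor and basic fibroblast growth factor. SNM cultures came from the same cells by a dopaminergic protocol. The study lists sonic hedgehog (Shh), FGF8 and ascorbic acid among its reagents and does not say at which step each was added. RNA of replicate cultures was pooled for each condition and the pool was hybridized 3 times, so every error and p-value below covers the spread between arrays of 1 pool and not that between cultures. A single hairpin was used for the knockdown, so its action on HPRT and any other action of that hairpin cannot be told apart.

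HPRT is the purine salvage enzyme that returns hypoxanthine and guanine to the nucleotide pool, and its loss causes Lesch-Nyhan disease, a disorder with dopamine deficits in the basal ganglia. A neural precursor acquires a regional identity from signals such as Shh, which patterns ventral neural tissue, and FGF8 and Wnt1, which pattern the midbrain and the isthmus, the border of midbrain and hindbrain. The transcription factors named below mark those regions in the embryo. Dopaminergic neurons arise from the ventral midbrain, at the floor plate.

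On the 12 arrays between 18827 and 22202 probes were detected. Signals of arrays within a condition correlated at 0.989 or above, and the median standard error of a stage difference was 0.146. All 9 ES cell markers checked, Pou5f1 and Nanog among them, were detected in every condition, and the log2 of their summed signal was 15.64 to 15.66 in Control (ES), 15.66 to 15.73 in HPRT knockdown (ES), 13.53 to 13.62 in Control (SNM) and 13.08 to 13.21 in HPRT knockdown (SNM). Of 10 neural markers, 5 were detected in Control (ES), 8 in Control (SNM) and 7 in HPRT knockdown (SNM). Sox1, an early neural marker, was detected on all 3 arrays of none of the 4 conditions. At SNM all 5 oligodendrocyte markers and all 8 fibroblast markers were detected in both cell types as well.

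Hprt1, the gene targeted, was measured by 3 probes. On the first, signals were 12.04, 12.07 and 12 in Control (ES) and 8.14, 7.96 and 7.75 in HPRT knockdown (ES), against 11.23, 11.23 and 11.13 in Control (SNM) and 9.34, 9.47 and 9.50 in HPRT knockdown (SNM). The knockdown arrays lay below the control arrays at both stages, but the gap narrowed from -4.09 to -1.76. The stage difference was 2.33, 2.50 and 2.13 on the 3 probes, with SE of 0.11, 0.20 and 0.10 and adjusted p-values of 2.17e-10, 8.74e-08 and 3.75e-10. In knockdown cells the Hprt1 signal was therefore higher at SNM than at ES, while in control cells it was lower. Between ES and SNM, the measured depletion of Hprt1 was thus smaller at the stage with more called effects. At the neuronal stage, on arrays outside this contrast, the effect on the 3 probes was -4.45, -3.71 and -4.38. The second probe was detected on no knockdown array there.

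The stage difference rose at 2595 probes and fell at 2126, which is 11.7% and 9.61% of the probes tested. Over probes detected on all 12 arrays the balance turned, to 1376 rises and 1685 falls. A probe is called here at an adjusted p-value under 0.05 and a difference of at least 1.5-fold. Its effect was also called within each stage. At ES the knockdown changed few probes, 0.516% higher and 1.17% lower of 18411, whereas at SNM it changed 11% and 8.9% of 20765. Most stage differences were effects that appeared: 1873 probes were higher in knockdown cells at SNM without a call at ES, and 1407 were lower. An effect reversed at 67 probes, 61 of which went from lower at ES to higher at SNM and 6 from higher to lower. At 97 probes a lower level at ES was no longer called at SNM, and at 52 a higher level was no longer called. For 554 rises and 661 falls the difference was called but the effect at neither stage was. Among probes with a called stage difference, 10 were called in the same direction at both stages, 7 higher and the 3 of Hprt1 lower. Whatever the call of the difference, 310 probes were called at ES, of which 26 had the same call at SNM, 67 the opposite call and 217 none. Over the 17051 probes tested at both stages, the ES and SNM effects, which share no array, had a Pearson correlation of -0.01, with standard deviations of 0.21 and 0.49.

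**Figure D1:**
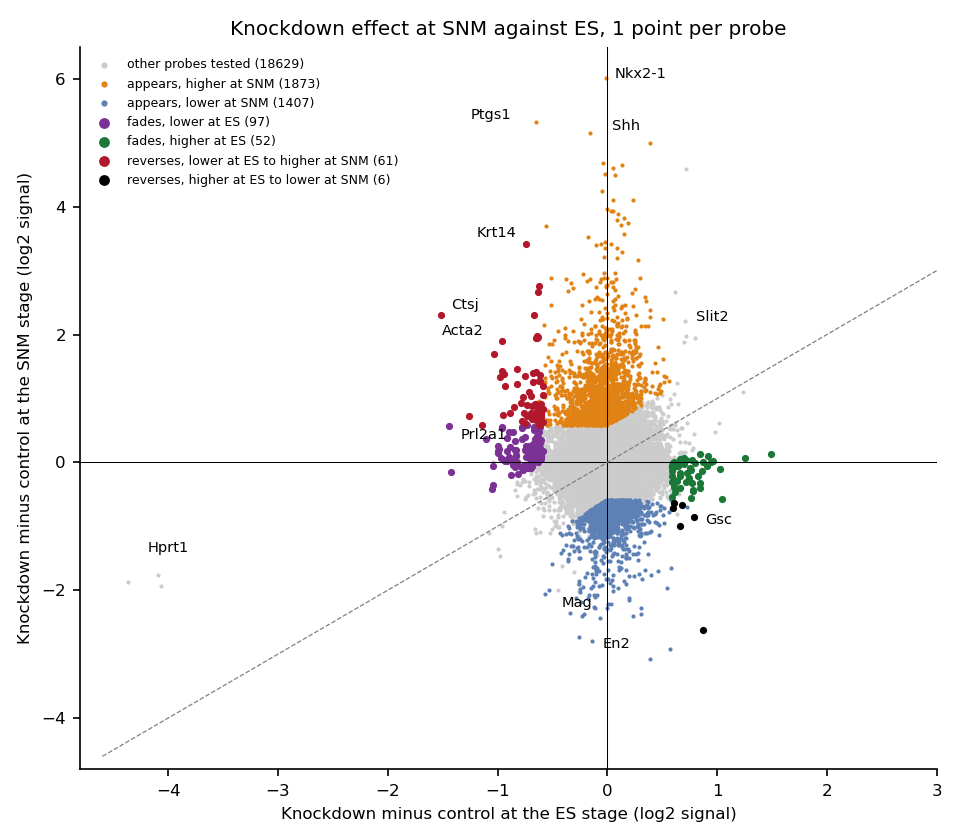
Knockdown minus control at SNM against the same difference at ES, both in log2 signal, with 1 point for each of the 22125 probes tested and the dashed line marking equal effects. The 1873 and 1407 probes whose effect appeared at SNM stretch along the vertical axis, the 61 that reversed upward lie at upper left, and the 3 Hprt1 probes lie alone at lower left.

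A stage difference can arise in either cell type, so the change from ES to SNM was tested within each. Between the stages, control cells had 23.7% of their tested probes rising and 25.4% falling, against 26.4% and 30.9% for knockdown cells. Of the 2595 rises of the stage difference, 1120 came from genes that rose in both cell types and further in knockdown cells, and 815 from genes called as rising in knockdown cells alone. Another 271 fell in control cells without a called change in knockdown cells, 172 fell in both, and 33 fell in control cells and rose in knockdown cells. Of the 2126 falls, 769 fell in knockdown cells with no call in control cells, 602 fell in both and further in knockdown cells, and 306 rose in control cells with no call in knockdown cells. Of the rises, 569 probes, or 21.9%, were detected on no ES array of either cell type, against 7.48% of the falls and 9.06% of all probes tested. For those genes the ES effect is a difference between background signals.

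**Figure D2:**
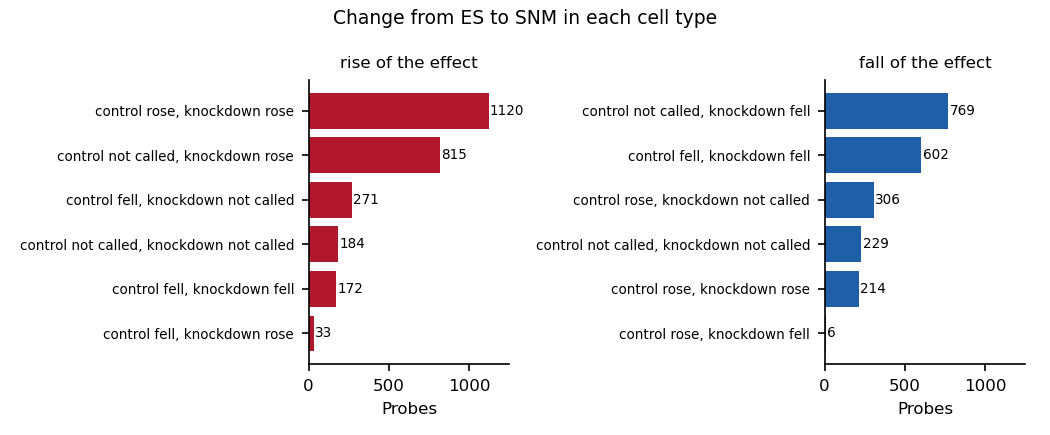
Number of probes, on a linear axis from 0, whose stage difference rose (left) or fell (right), split by how each cell type changed from ES to SNM. The tallest bars are the 1120 probes that rose in both cell types and the 769 that fell in knockdown cells with no call in control cells.

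The largest rise was that of Nkx2-1. Nkx2-1, the homeobox factor of the hypothalamus and medial ganglionic eminence, lies on chromosome 12. It was detected on no ES array, with signals of 4.42 to 4.48 in control and 4.42 to 4.46 in knockdown cells, and on 1 of 3 Control (SNM) arrays, at 4.67, 4.65 and 4.79. In HPRT knockdown (SNM) it stood at 10.68, 10.73 and 10.73. The stage difference was 6.02 ± 0.08 (SE), adjusted p = 5.41e-17, and the means at SNM differed 64.5-fold as measured, from a control level at background on 2 of 3 arrays. Its paralog Nkx2-4 was detected on no Control (SNM) array and reached 8.54, 8.43 and 8.61 in knockdown cells, at least 13.6-fold higher, with a stage difference of 3.88 ± 0.13 on this probe and 1.02 on another.

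Shh, the ligand secreted by the floor plate, was detected on no ES array. In Control (SNM) it gave 5.77, 5.72 and 5.46, and in HPRT knockdown (SNM) 10.91, 10.91 and 10.58. Every knockdown array was far above every control array, a 35.5-fold difference between the means, and the stage difference was 5.31 ± 0.18 with an adjusted p of 4.63e-12. A second Shh probe gave 4.53. Shh protein is among the reagents of the study, added at a step that is not stated, and the array does not measure protein.

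Of 27 tested genes of the ventral forebrain and hypothalamus list, 14 rose (51.9%) and 3 fell, with a median stage difference of 0.65 against -0.05 over all probes tested. Of the 27 genes 16 were detected on no ES array, so their ES effect is a difference between background signals. The Dlx genes, homeobox factors of ventral forebrain interneuron precursors, rose by 2.99 ± 0.12 for Dlx1 and 2.64 ± 0.17 for Dlx2 (0.97 on its other probe). Neither was detected at ES. Their control levels at SNM were 6.45 and 5.47 against 9.41 and 8.12 in knockdown cells. The median of this list changed with the processing, to 0.11 with no detection filter, 1.14 over genes detected on all 12 arrays, 0.23 with quantile normalization and no background correction, 0.35 with 75th percentile scaling and 0.29 with a background offset of 50.

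In the floor plate and dopaminergic specification list, 15 of 21 tested genes rose and 4 fell, with a median of 1.18. Lmx1a, the homeobox factor of midbrain dopaminergic progenitors and of the roof plate, rose by 2.29 ± 0.15 (1.03 on its other probe). Corin, a floor plate protease, rose by 2.18 ± 0.16 and Foxa1, a forkhead factor of the floor plate and of endoderm, by 1.88 ± 0.25. At SNM the mean signals of Lmx1a were 5.62 in control and 8.04 in knockdown cells, those of Corin 7.05 and 9.28, and those of Foxa1 6.65 and 8.92. The falls in this list included En2, described below. Of the 21 tested genes 9 were detected on no ES array, and over the genes detected on all 12 arrays the median was -0.23. It was 0.67 with quantile normalization and no background correction and 0.72 with no detection filter.

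In the hedgehog list 8 of 22 tested genes rose and 1 fell, with a median of 0.31. Ptch1, the receptor and a direct target of the pathway, had means of 7.42 and 7.90 in control and knockdown cells at ES and of 7.35 and 8.58 at SNM, a stage difference of 0.75 with an adjusted p of 3.58e-06. Nkx6-2, a ventral homeobox factor, rose by 1.52 ± 0.22 and Nkx2-2, another, by 1.07 ± 0.13, though the other Nkx2-2 probe gave 0.48 and was not called. Foxf2, a forkhead factor of mesenchyme, rose by 1.16 ± 0.18 and Bcl2, an inhibitor of apoptosis, by 0.99 ± 0.11. Gli2, a transcriptional effector of the pathway, was the only fall, -0.79 with an adjusted p of 6.33e-06. Ptch1 and Gli2 were chosen after their values were seen, as was Foxj1 below.

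Genes of the midbrain, isthmus and hindbrain fell. Of 25 tested genes in that list 14 fell (56.0%) and 1 rose, with a median of -0.90. That median was -0.42 with quantile normalization and no background correction, -0.44 with 75th percentile scaling, -0.43 with a background offset of 50 and -0.38 with no detection filter. En2, the engrailed homeobox gene of the midbrain and isthmus, lies on chromosome 5. Its signals at ES were 7.27, 7.48 and 7.39 in control and 7.2, 7.24 and 7.26 in knockdown cells. At SNM control cells reached 10.30, 10.35 and 10.36, while knockdown cells stayed at 7.59, 7.58 and 7.44. The ES ranges of the cell types are close and the SNM ranges far apart, and the stage difference was -2.65 ± 0.09, adjusted p = 3.45e-12. Gbx2, the homeobox factor of the anterior hindbrain, started from 11.54, 11.57 and 11.58 in Control (ES) and 11.40, 11.50 and 11.48 in HPRT knockdown (ES). It fell to between 9.98 and 10.08 in control and to between 7.66 and 7.80 in knockdown cells at SNM, a stage difference of -2.17 ± 0.08. Sp8, a zinc finger factor of signalling centres including the isthmus, had a stage difference of -2.21 ± 0.21. The stage difference of Tcfap2b, the AP-2 beta factor of neural crest and dorsal neural tissue, was -2.18 ± 0.40 on its brightest probe and -2.27 ± 0.33 on the probe with the largest change. Lmx1a was the rise of this list.

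**Figure D3:**
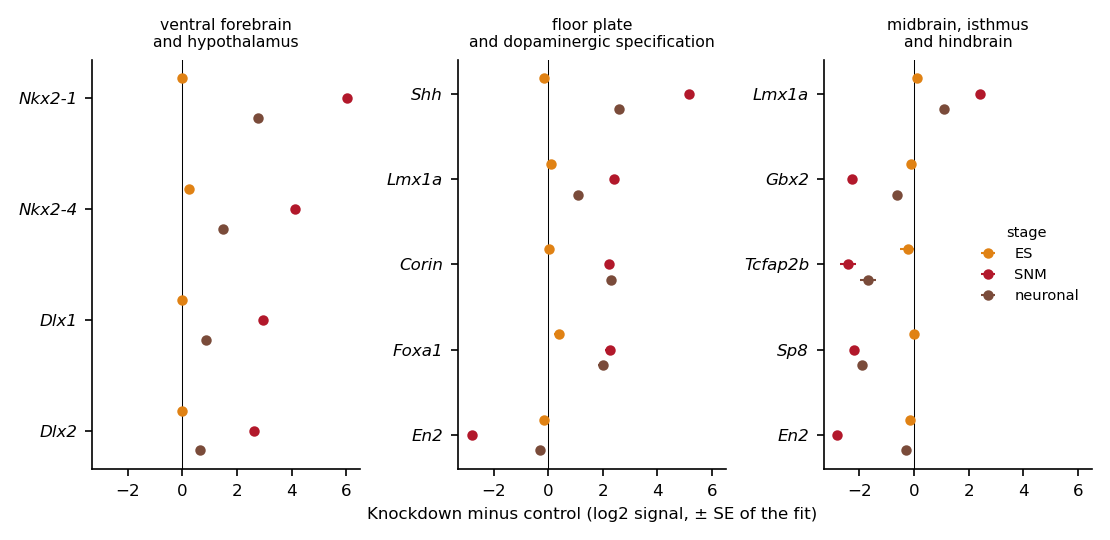
Knockdown minus control at the ES, SNM and neuronal stages, in log2 signal with SE of the fit, for called genes with the largest stage differences in each of 3 lists of regional genes, 4 of the first list and 5 of each other. ES values lie near 0, up to 0.39 for Foxa1, whereas SNM values reach 6.01 for Nkx2-1 and -2.80 for En2.

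Apart from these regulators, the 12 largest rises held genes of several other kinds. Ptgs1, the constitutive cyclooxygenase, rose by 5.97 ± 0.14, from 5.21, 5.14 and 5.08 in Control (SNM) to 10.50, 10.43 and 10.47 in HPRT knockdown (SNM), and it was detected on 2 Control (ES) arrays and on no HPRT knockdown (ES) array. Car3, a carbonic anhydrase of muscle and fat, rose by 4.59 ± 0.16, with means at SNM differing 31.7-fold. Angptl1, a secreted angiopoietin-like protein, rose by 4.56 ± 0.11. Krt19, a keratin of simple epithelia, was detected in both cell types at ES at near equal levels, on no Control (SNM) array, and at 9.35, 9.12 and 9.05 in HPRT knockdown (SNM), at least 21.3-fold higher. The others were Pde1a, a calcium-regulated phosphodiesterase (4.29 ± 0.20), Prelp, a matrix proteoglycan (4.27 ± 0.15), Krt14 (4.15 ± 0.23), Dynlrb2, a dynein light chain of cilia (4.04 ± 0.18), and Rab38, a trafficking GTPase of melanosomes and related organelles (3.90 ± 0.19).

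The largest falls beside the regional genes were of a lower size. Tex19.1, a gene of pluripotent and germ cells, went from 11.54 to 11.59 in Control (ES) and 11.78 to 11.97 in HPRT knockdown (ES) to 8.73 to 8.87 and 6.44 to 6.64 at SNM, a stage difference of -2.59 ± 0.10. Knockdown arrays were above control arrays at ES and below them at SNM. Mmp3, a matrix metalloprotease, Mag, a myelin protein, and Crabp2, a retinoic acid carrier, had stage differences of -2.37 ± 0.15, -2.25 ± 0.17 and -2.17 ± 0.19. Others were Ly6g6e (-2.23 ± 0.16), the cytokine Osm (-2.16 ± 0.15) and Defcr6, an intestinal defensin by name (-2.15 ± 0.14). The array's largest single fall, -3.50, was on a probe without an established gene symbol.

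The effect reversed from lower at ES to higher at SNM at 61 probes. They carry 49 symbols, and 4 probes of Acta2, 5 of Lmna, 3 of Igfbp5 and 2 each of Actc1, Myl9 and Ednrb were among them. Acta2, the smooth muscle actin, lies on chromosome 19. On its probe with the largest stage difference, signals were 10.25, 10.23 and 10.25 in Control (ES) and 9.23, 9.32 and 9.31 in HPRT knockdown (ES). At SNM they were 9.22, 9.10 and 9.12 in control and 11.06, 11.04 and 11.03 in knockdown cells. The array ranges did not overlap at either stage and their order was opposite. The effect was -0.96 at ES and 1.90 at SNM, a stage difference of 2.85 ± 0.07 with an adjusted p of 1.47e-13, and the other 3 probes gave 2.10 to 2.72.

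Actc1, the cardiac actin that is also the actin of embryonic skeletal muscle, gave 7.05, 6.86 and 6.83 in Control (ES) against 6.02, 5.95 and 5.95 in HPRT knockdown (ES), and 7.91, 7.73 and 7.59 against 9.17, 9.05 and 9.14 at SNM. Again the order of the cell types was opposite at the 2 stages, with effects of -0.94 and 1.38 and a stage difference of 2.32 ± 0.14. Myl9, a myosin light chain of smooth muscle, went from 8.27, 8.19 and 8.30 against 7.66, 7.59 and 7.55 to 6.10, 6.05 and 5.69 against 7.27, 7.46 and 7.36, control first, a stage difference of 2.08 ± 0.13. In control cells both Acta2 and Myl9 fell from ES to SNM, by 1.1 and 2.31. In knockdown cells Acta2 rose by 1.76 and Myl9 changed by -0.23.

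Serum response factor, the regulator of actin and myosin genes in contractile cells, binds the CArG box. Within the 250 bases before the transcription start, that box was found before 2 of the 27 reversing genes that have a promoter in the reference (7.41%; 38 of their symbols were matched to current gene names) and before 439 of 27025 genes in all (1.62%). Both windows are shown because these genes hold the box and both reversed from lower to higher. In control cells they moved apart from ES to SNM, by 0.83 for Actc1 and -2.31 for Myl9. Any part of the box in the reversals was not tested. A match is a description of the letters and not a binding site. The sequences are from RefSeq on GRCm38.p6 and run 5′ to 3′ on the gene's strand, with the box in capitals. That of Actc1 is chr2:114052876-114053125 on the minus strand and that of Myl9 is chr2:156775214-156775463 on the plus strand. The boxes start 47 and 161 bases before the start site.
Actc1: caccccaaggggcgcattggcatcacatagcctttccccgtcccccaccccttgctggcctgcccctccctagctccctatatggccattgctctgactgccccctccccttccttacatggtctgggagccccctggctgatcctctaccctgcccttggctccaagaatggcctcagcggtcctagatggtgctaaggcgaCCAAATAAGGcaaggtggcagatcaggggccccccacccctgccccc
Myl9: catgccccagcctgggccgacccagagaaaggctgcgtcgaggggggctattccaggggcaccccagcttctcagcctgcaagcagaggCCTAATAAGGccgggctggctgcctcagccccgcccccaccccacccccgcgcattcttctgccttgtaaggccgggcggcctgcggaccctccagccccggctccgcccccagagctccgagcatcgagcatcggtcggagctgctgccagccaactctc

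Krt14, the keratin of basal epidermis, had the largest reversal. It gave 5.85, 6.15 and 6.13 in Control (ES) and 5.20, 5.68 and 5.04 in HPRT knockdown (ES), a difference of -0.74 (adjusted p = 0.00761). At SNM it gave 5.12, 5.23 and 4.82 in control and 8.55, 8.47 and 8.41 in knockdown cells. The knockdown arrays were below the control arrays at ES and above them at SNM, a stage difference of 4.15 ± 0.23. Ctsj, a cathepsin of the placenta, was higher at ES, at 7.16, 7.23 and 7.08 in control and 5.80, 5.40 and 5.70 in knockdown cells. At SNM it was detected on no control array and stood at 6.43, 6.79 and 6.56 in knockdown cells, at least 3.56-fold higher. Its stage difference was 3.82 ± 0.14.

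Slc25a18, a mitochondrial glutamate carrier of astrocytes, reversed with effects of -0.63 and 2.67, though at ES it was detected on 1 of 3 knockdown arrays. Ogn, a small matrix proteoglycan, had effects of -0.64 and 1.97 and was detected on no HPRT knockdown (ES) array, so that its ES level in control cells was at least 1.28-fold higher. Cryab, a small heat shock protein of muscle and glia, gave 8.43, 8.67 and 8.53 against 7.92, 7.93 and 7.89 at ES and 6.51, 6.53 and 6.48 against 8.45, 8.51 and 8.43 at SNM, control first. Knockdown cells held nearly the control ES level of Cryab at SNM, while in control cells it had fallen from ES. Plat, the tissue plasminogen activator, Cav1, the caveolar coat protein, and Arhgdib, a GTPase inhibitor of blood cells, had stage differences of 2.59 ± 0.09, 2.13 ± 0.09 and 2.08 ± 0.15. The probe for mt-Nd6, a mitochondrially encoded subunit of complex I, gave 7.76, 7.69 and 7.92 against 7.12, 6.72 and 6.64 at ES and 4.78, 4.89 and 5.17 against 6.03, 6.33 and 6.77 at SNM. A probe for mt-Nd4l, also mitochondrially encoded, reversed too, with effects of -0.68 and 1.26 and a stage difference of 1.94 ± 0.28. It was chosen after its values were seen. Of 52 tested nuclear genes of the respiratory chain, 1 fell (Cyc1, -0.62 ± 0.09) and none rose, with a median of 0.04.

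**Figure D4:**
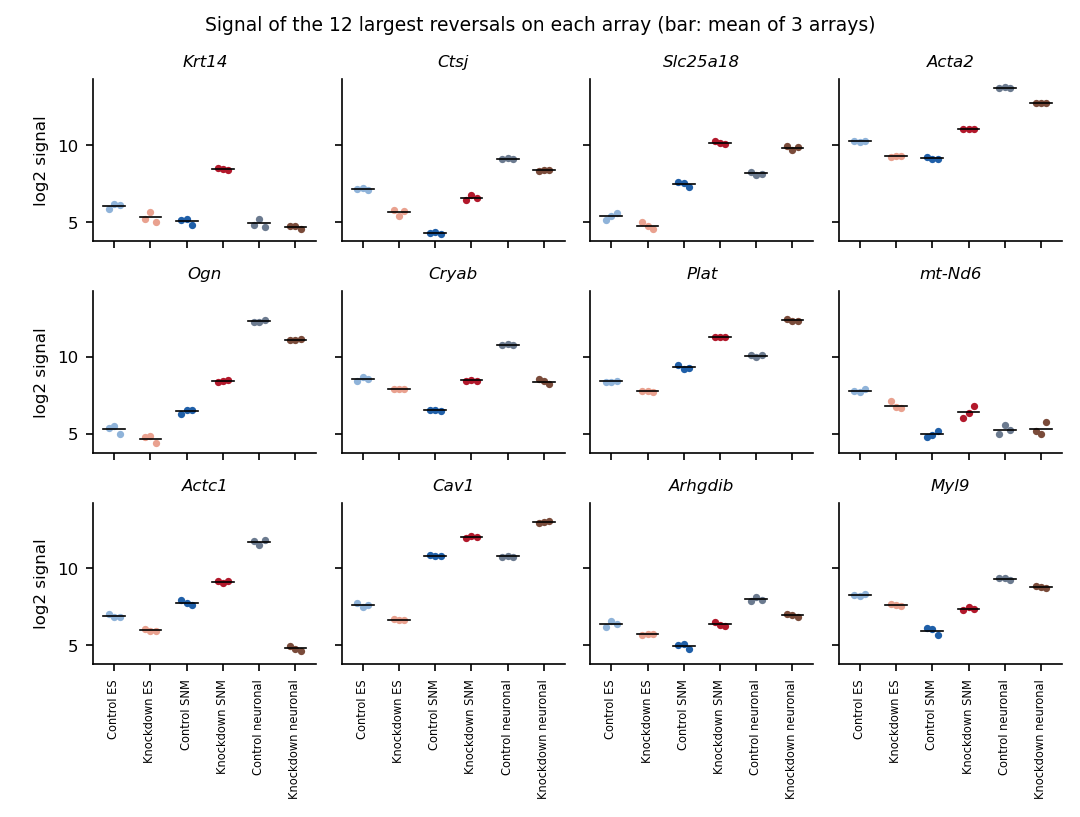
Log2 signal on each of the 18 arrays for the 12 named genes with the largest reversals to higher, with points for arrays and bars for the mean of 3. In each panel knockdown lies below control at ES and above it at SNM, and at the neuronal stage the 2 cell types stand in either order.

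Effects turned from higher at ES to lower at SNM at 6 probes. The largest of these was on a probe the array names LOC674912, with 6.05, 6.62 and 6.85 in Control (ES) and 7.58, 7.30 and 7.24 in HPRT knockdown (ES). At SNM it gave 6.97, 7.21 and 7.06 in control cells and was detected on no knockdown array, being at least 5.27-fold lower there, and the stage difference was -3.48 ± 0.24. Another, 4930565A21Rik, is Celf5 in the reference and had a stage difference of -1.25 ± 0.25. Both were chosen after their values were seen. Gsc, the homeobox gene of the gastrula organizer, was detected on no Control (ES) array and gave 5.15, 5.48 and 5.12 in HPRT knockdown (ES), at least 1.30-fold higher. At SNM it gave 6.77, 6.8 and 6.73 in control and 5.77, 6.03 and 5.93 in knockdown cells, and the stage difference was -1.64 ± 0.13. Ahcy, which hydrolyses S-adenosylhomocysteine, had effects of 0.66 and -0.99, with detection on 1 of 3 Control (ES) arrays. Mep1b, a metalloprotease subunit, had effects of 0.68 and -0.67, and Dhdh, a dihydrodiol dehydrogenase, 0.60 and -0.71. Control levels of Dhdh at ES were below detection, and knockdown cells were at least 1.28-fold higher there.

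The call of a reversal depended on the ES effect, which lay close to the 1.5-fold limit for most of these genes. The 61 probes had opposite signs at the stages under each of the 21 alternative settings. The settings of detection filter, variance, fold and replicate block leave the effect sizes unchanged, so a sign could differ only under the others. With quantile normalization and no background correction 14 of them were still called in both directions, with 75th percentile scaling 12, and with a background offset of 50 it was 19. Of the 12 named, Acta2, Cav1, Ctsj and mt-Nd6 kept both calls under all 3 of these settings, and Actc1 under 2. Without the second Control (ES) array 43 of the 61 probes kept both calls. None of the 4 named reversals to lower kept both calls under those 3 settings.

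Fibroblasts are the feeder cells of the ES cultures, and their markers were measured beside these genes. The log2 of the summed signal of 8 markers (Col1a1, Col1a2, Col3a1, Postn, Lum, Dcn, Thy1 and Twist1) was 8.75 to 8.88 in Control (ES) and 8.45 to 8.57 in HPRT knockdown (ES), ranges that do not overlap. Col1a1, Postn and Lum were detected on no ES array. At SNM the range was 12.68 to 12.80 in control and 12.83 to 13.13 in knockdown cells. Singly, on the probe counted for each, 0 of 4 tested markers were called at ES. At SNM 2 of 8 were higher in knockdown cells, and 3 of 8 rose in the stage difference. Another probe of Dcn, outside these counts, was itself a reversal from lower to higher. Its effects were -0.75 at ES and 0.62 at SNM, a stage difference of 1.37 ± 0.12, and it was detected on every ES and SNM array. In bulk RNA, fewer cells of a type and less RNA per cell cannot be told apart, and the part that feeder or mesenchymal cells play in the reversals was not tested.

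In the wider fibroblast and mesenchyme list 15 of 36 tested genes rose and 2 fell, with a median of 0.52 (0.22 with 75th percentile scaling). At ES 7 of 24 tested genes were lower in knockdown cells and none was higher. Beside Acta2, the named rises were Ctgf, a matricellular growth factor (1.94 ± 0.09), Fbln2, a fibulin (1.69 ± 0.36), Col6a3, a collagen VI chain (1.5 ± 0.15), and Serpinf1, a secreted serpin (1.41 ± 0.09). Second probes of Serpinf1, Fbln2 and Col6a3 gave -0.36, 0.58 and 0.34 and were not called.

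Effects called at ES and no longer at SNM included several genes of the same kind. Prl2a1, a placental prolactin-like hormone, gave 6.06, 6.15 and 6.36 in Control (ES) and was detected on no HPRT knockdown (ES) array, so that control was at least 2.39-fold higher there. At SNM Prl2a1 was detected on no control array and stood at 5.03, 4.74 and 4.93 in knockdown cells, at least 1.1-fold higher. Tgfb1i1, a focal adhesion protein of smooth muscle, was lower by 0.86 at ES (6.92, 7.18 and 7.22 against 6.32, 6.26 and 6.15) and higher by 0.48 at SNM. Nrp1, a semaphorin and VEGF receptor, Col6a3, Fabp7, the fatty acid binding protein of radial glia, and Tnc, a matrix glycoprotein, were each lower at ES, by 0.96, 0.96, 0.90 and 0.78. The means of each were below 6 at ES and above 9 at SNM, where the effects lay between 0.48 and 0.56. Of 3 other Tnc probes, with stage differences of 0.03 to 1.21, 1 was called. That probe counted as a reversal to higher, with effects of -0.62 at ES and 0.59 at SNM. Col6a3 and Fabp7 were detected on no HPRT knockdown (ES) array, so that control was at least 1.52-fold and 1.44-fold higher there. In the other direction Zcchc6, an RNA uridylyltransferase, was higher by 1.04 at ES, at 6.14, 6.22 and 6.37 in knockdown against 5.31, 5.02 and 5.29 in control cells, while its other probes had stage differences of -0.67 and -0.29 and were not called. Cyp2b23, a cytochrome P450, was higher by 1.25 at ES and detected at SNM in neither cell type. H2-Bl, an MHC class I related gene, a second Mep1b probe, Chst3, a chondroitin sulfotransferase, and Rab39 were higher by 0.59 to 0.84.

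Genes of astrocytes and radial glia rose as a group: 27 of 34 tested (79.4%), none fell, and the median was 1.36. Agt, angiotensinogen, rose by 3.70 ± 0.09 from an ES level below detection in both cell types, with SNM means of 5.59 in control and 9.38 in knockdown cells. Slc6a11, a GABA transporter of astrocytes, was detected on no Control (SNM) array, and its knockdown level was at least 6.99-fold higher. Apoe, a lipid carrier made by astrocytes and measured in the ES cultures here too, had means of 9.65 and 9.95 at ES and 8.88 and 11.76 at SNM, a stage difference of 2.58 ± 0.10. It fell in control cells and rose in knockdown cells. Ttyh1, a chloride channel of neural precursors, rose by 2.46 ± 0.10 and Atp1b2, the glial sodium pump subunit, by 2.12 ± 0.12. Of the 34 genes 12 were detected on no ES array, and the median was 1.02 over those detected on all 12 arrays and 0.90 with 75th percentile scaling.

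Genes of the choroid plexus and of motile cilia also rose, 16 of 24 tested with 1 fall and a median of 1.34, which was 0.80 with quantile normalization and no background correction and 0.52 over genes detected on all 12 arrays. Dynlrb2 and Sostdc1, a BMP and Wnt antagonist, rose by 4.04 ± 0.18 and 3.27 ± 0.12, and Ttr, the transthyretin secreted by choroid plexus and by visceral endoderm, by 3.25 ± 0.11. Ttr differed from the others in being detected at ES, with means of 6.31 and 5.93 in control and knockdown cells, and reached 5.64 and 8.51 at SNM. Lrrc23, of ciliary radial spokes, rose by 2.37 ± 0.21, and 1700009P17Rik was detected on no Control (SNM) array, and its knockdown level was at least 4.00-fold higher. Foxj1, the regulator of motile cilia, was near background throughout, with a stage difference of 0.41 and an adjusted p of 0.171.

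Genes of oligodendrocytes and myelin fell, 16 of 27 tested (59.3%) with 5 rises and a median of -0.98. Mag, a myelin adhesion protein, was detected on 1 of 3 ES arrays of each cell type and gave 9.14, 9.18 and 9.06 in Control (SNM) and 6.96, 6.85 and 6.93 in HPRT knockdown (SNM). Opalin, a myelin membrane protein, Lims2 and Enpp6 had stage differences of -2.02 ± 0.15, -1.98 ± 0.15 and -1.94 ± 0.40. In Control (SNM) their means were 6.99, 9.61 and 8.30 in that order, and in knockdown cells 4.64, 7.68 and 6.18. Opalin was detected on no ES array and on 1 of 3 HPRT knockdown (SNM) arrays, whereas Lims2 and Enpp6 were detected on every SNM array. Nkx6-2 and Nkx2-2 stood among the rises of this list.

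The lists of neuronal genes went different ways. In the neuron list 10 of 30 tested genes rose (33.3%) and 2 fell (6.67%), with a median of 0.23. Over all probes tested 11.7% rose and 9.61% fell. D11Bwg0517e, as the array names it, rose by 2.10 ± 0.26, and Syp, the synaptic vesicle protein synaptophysin, by 1.63 ± 0.20. Mapt, the microtubule protein tau, rose by 1.34 ± 0.34 on its brightest probe, with 0.41 and 0.43 on the other 2, which were not called. Scg3, a granin of secretory granules, rose by 1.24 ± 0.21. Nefm, the medium neurofilament chain, fell by 1.78 ± 0.12, with SNM means of 9.44 in control and 7.41 in knockdown cells. Among proneural factors and Delta ligands 5 of 19 tested genes fell (26.3%) and 1 rose (5.26%), with a median of -0.36. Neurod4, Ebf1 and Ebf2, factors of early differentiating neurons, had stage differences of -1.89 ± 0.17, -1.87 ± 0.45 and -1.54 ± 0.22, and Mfng, a modifier of Notch, -0.70 ± 0.09, with -0.56, not called, on its other probe. Neurog2, a factor that starts neurogenesis, rose by 0.73 ± 0.11, although its second probe (0.37) was not called.

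In the neural progenitor list 6 of 23 tested genes rose and 3 fell, with a median of 0.28. Id4, an inhibitor of differentiation factors, and the intermediate filament genes Vim and Nes rose by 1.53 ± 0.11, 1.27 ± 0.11 and 0.88 ± 0.17, and Pax6 fell by 0.87 ± 0.22. Secreted neuropeptides went both ways, 10 rising and 6 falling of 25 tested. Pmch, the hypothalamic melanin-concentrating hormone precursor, was detected in HPRT knockdown (SNM) and on no array of the other 3 conditions, at least 7.47-fold above Control (SNM), with a stage difference of 3.16 ± 0.10. Gal, galanin, rose by 1.57 ± 0.16 and Chgb, chromogranin B, by 1.5 ± 0.20. Sst, somatostatin, fell by 1.49 ± 0.14 and Cart, a feeding-related peptide, by 1.46 ± 0.19, with SNM means of 10.54 against 8.48 and 9.09 against 7.53.

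Genes of skeletal muscle rose without exception among those called: 15 of 25 tested, with a median of 0.73. Beside Actc1, the troponin gene Tnnc1 rose by 1.96 ± 0.11, the fetal myosins Myh8 and Myh3 by 2.02 ± 0.22 and 1.69 ± 0.14, and the fetal acetylcholine receptor subunit Chrng by 1.80 ± 0.13. Tnnc1 was also a reversal, lower by 0.61 at ES and higher by 1.36 at SNM. Genes of endoderm rose in 15 of 28 tested with no fall and a median of 0.75, which was 0.38 with quantile normalization and no background correction. Krt8, a keratin of simple epithelia, and Gata6, a factor of primitive endoderm, rose by 3.40 ± 0.13 and 2.41 ± 0.14. Gata6 had means of 10.97 and 10.47 at ES and 6.91 and 8.83 at SNM. In the trophoblast and placenta list, which was drawn up with Ctsj, Prl2a1 and Gkn1 known to move, 10 of 21 tested genes rose and 1 fell. Rhox9, a homeobox gene of placenta and gonad, had a stage difference of 1.83 ± 0.10 and was detected on no Control (SNM) array, being at least 2.19-fold higher in knockdown cells there.

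Among imprinted genes 10 of 21 tested rose and 1 fell, with a median of 0.49. Igf2, the fetal growth factor, had means of 8.79 and 8.68 at ES and 11.93 and 14.07 at SNM, a stage difference of 2.25 ± 0.09. The paternally expressed Peg3 rose by 2.02 ± 0.47 and the maternally expressed Gtl2 by 1.56 ± 0.11. Usp29, a neighbour of Peg3, rose by 3.03 ± 0.22 on 1 probe and by 0.54, not called, on another. Dlk1, a Notch-related ligand, rose by 1.20 ± 0.08. Of 19 tested Hox genes, markers of the trunk and hindbrain axis, 8 rose and none fell, with a median of 0.63 (0.29 with quantile normalization and no background correction). Hoxc9 had a stage difference of 1.94 ± 0.11 and Hoxa5 of 1.29 ± 0.25, the latter from a lower level in knockdown cells at ES (5.00 against 5.91). Hoxb5, Hoxc6 and Hoxd4 had 1.07 ± 0.11, 1.03 ± 0.20 and 0.96 ± 0.12.

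For the lists that follow, the shares over all probes tested were 11.7% rising and 9.61% falling. Of Wnt genes 8 rose and 8 fell of 38 tested (21.1% each way). Wif1, a secreted Wnt inhibitor, and Dkk3 rose by 2.14 ± 0.25 and 1.42 ± 0.10, and Sfrp2, another secreted modulator, fell by 1.47 ± 0.08. Of FGF genes 4 rose and 8 fell of 27 tested (14.8% and 29.6%). Fgf17, a ligand of the isthmus, had means of 9.55 and 9.47 at ES and 7.24 and 5.30 at SNM, a stage difference of -1.85 ± 0.18, though its second probe gave -0.36 and was not called. Fgf15, another FGF ligand of the embryonic brain, had -1.62 ± 0.12, and Fgfr3, an FGF receptor of glial precursors, rose by 1.40 ± 0.17. In the BMP, activin and TGF-beta list 11 of 34 tested rose and 5 fell. Gdf10, a ligand of the family, rose by 2.00 ± 0.11 and Msx1, a BMP response gene, by 1.65 ± 0.19. In the dorsal neural tube, roof plate and neural crest list 6 of 23 rose and 4 fell with a median of -0.09. In the axon guidance list 16 of 43 tested rose and 3 fell. The ephrin Efnb3 rose by 2.17 ± 0.16, Rgma by 1.33 ± 0.09, and Slit2, a repellent secreted at the ventral midline, by 1.5 ± 0.18. Slit2 was higher in knockdown cells at both stages, by 0.71 at ES and 2.21 at SNM. Retinoid genes rose in 4 and fell in 6 of 20 tested, with Cyp26b1, which degrades retinoic acid, at -1.79 ± 0.17 and Crabp1, a carrier, at -1.60 ± 0.10.

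Cell cycle and DNA replication genes fell together: 28 of 47 tested (59.6%) fell and none rose, with a median of -0.69. Rrm2, the ribonucleotide reductase subunit, had means of 9.40 and 9.24 at ES and 9.67 and 8.29 at SNM, a stage difference of -1.22 ± 0.13. The replication factors Cdc45l and Mcm10, the checkpoint kinase Chek1 and the spindle checkpoint gene Bub1b had stage differences of -1.14 ± 0.11, -1.11 ± 0.09, -1.07 ± 0.16 and -1.05 ± 0.13. At ES no gene of this list was called in either direction. Pluripotency genes also fell, 18 of 39 tested with 4 rises and a median of -0.54. Fbxo15, Lin28, Dppa3 and Gdf3 had -1.34 ± 0.09, -1.26 ± 0.15, -1.17 ± 0.17 and -1.08 ± 0.10. The median of the list moved by -2.31 from ES to SNM in control cells and by -2.69 in knockdown cells. Tbx3 rose by 1.20 ± 0.18, while its second probe gave 0.01.

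Of 39 tested genes of purine metabolism, the pathway of HPRT itself, 6 rose, Hprt1 among them, and 6 fell, 15.4% each way beside 11.7% and 9.61% of all probes, with a median of -0.19. Adsl, which acts in de novo synthesis of purines, had means of 9.94 and 9.84 at ES and 9.52 and 8.44 at SNM, a stage difference of -0.99 ± 0.12. Entpd2, an ecto-nucleotidase, and Adora1, the adenosine A1 receptor, rose by 2.09 ± 0.19 and 2.09 ± 0.21, and Gmpr, GMP reductase, by 1.37 ± 0.13. Genes of the Atf4 stress response and serine and folate metabolism fell in 10 of 35 with 1 rise (Fgf21, 0.91 ± 0.17), led by Mthfd2 at -1.14 ± 0.07, Cth at -1.02 ± 0.10 and Asns at -0.96 ± 0.08. Of p53 targets 8 of 29 fell and 2 rose, Plk3 with -1.56 ± 0.11 and Gtse1, a cell cycle gene, with -1.26 ± 0.11 (-1.08 and 0.14 on its other probes, the latter not called). Lysosome genes rose in 14 of 44 with no fall. Ctsa, a lysosomal carboxypeptidase, rose by 2.17 ± 0.12 on 1 probe, with 0.09 and 0.17 on the other 2. Ctsh and the membrane protein Cd63 rose by 1.05 ± 0.11 and 1.03 ± 0.10, the other Cd63 probes giving 0.88 and 0.57, the latter not called. Hypoxia and glycolysis genes were balanced, 6 up and 6 down of 36 (16.7% each way). Interferon and MHC class I genes rose in 10 of 30 with 1 fall. Endothelial and blood genes rose in 6 and fell in 2 of 18, and of 6 tested microglial genes 1 rose and 1 fell, with Csf1r, Aif1, Itgam and Cx3cr1 as a group at 6.53 to 6.71 in Control (SNM) and 6.54 to 6.58 in HPRT knockdown (SNM) on the log2 scale of their sum.

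**Figure D5:**
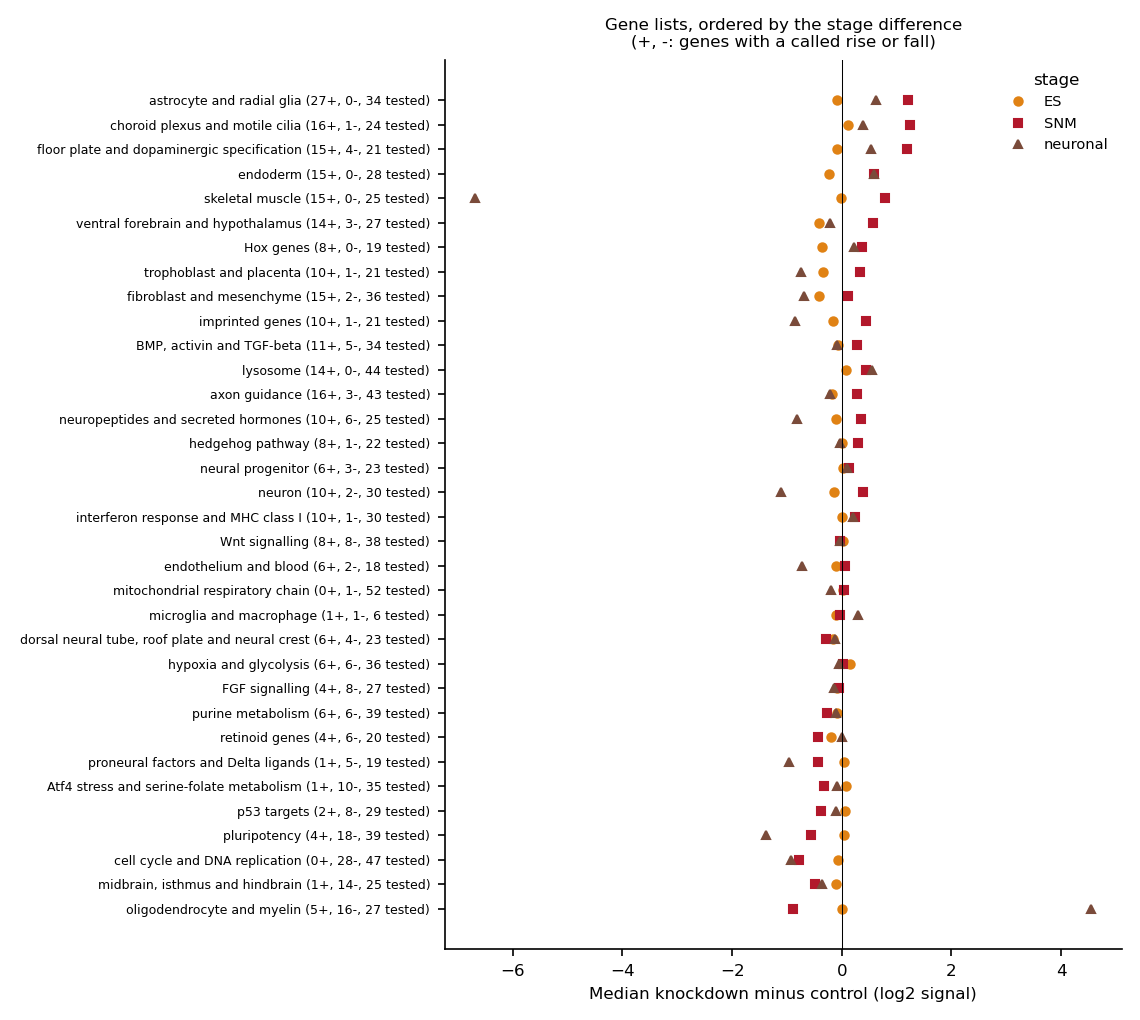
Median knockdown minus control, in log2 signal, for the 34 gene lists at the ES, SNM and neuronal stages, each over the genes tested at that stage, ordered from the highest stage difference (top, astrocyte and radial glia) to the lowest (bottom, oligodendrocyte and myelin). The neuronal medians farthest from 0 are -6.68 for skeletal muscle and 4.55 for oligodendrocyte and myelin, both opposite in sign to the SNM medians.

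The final neuronal stage was measured on 6 other arrays, 3 in each cell type, which are no part of the contrast but share the model's estimate of variance with it. Of 20893 probes tested there, 13.9% were higher and 13.5% lower in knockdown cells. Of the 1873 probes that appeared as higher at SNM, 1769 were tested at the neuronal stage: 32.9% were higher there and 21.3% lower. Of 1338 tested probes that appeared as lower at SNM, 36.5% were lower and 9.94% higher. Of the 61 reversals to higher, 15 were higher at the neuronal stage and 19 were lower. SNM effects thus persisted at some probes and were opposite at others.

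Nkx2-1, Shh and Ptgs1 were among those that persisted, with neuronal effects of 2.76, 2.61 and 3.45, and so were Apoe (3.00), Corin (2.30) and Foxa1 (2.00). By list, 7 of 19 tested ventral forebrain and hypothalamus genes were higher at the neuronal stage and 7 lower. For floor plate and dopaminergic specification it was 10 higher and 2 lower of 21. En2 narrowed to -0.30, but in the midbrain, isthmus and hindbrain list 11 of 23 tested genes were lower there and 3 higher. The contractile genes turned: Acta2 was at 13.69, 13.79 and 13.70 in control and 12.72, 12.73 and 12.73 in knockdown cells, an effect of -1.0, and Actc1 at 11.76, 11.48 and 11.80 against 4.95, 4.77 and 4.65, an effect of -6.89. Acta2, Actc1, Ogn, Cryab, Arhgdib and Ctsj were thus lower, higher and again lower in knockdown cells at the 3 stages, while Plat, Cav1 and Slc25a18 stayed higher. Of the 25 tested skeletal muscle genes 24 were lower at the neuronal stage. Myelin genes turned the other way, 24 of 27 tested being higher: Mag was at 5.94, 5.85 and 5.93 in control and 12.44, 12.49 and 12.50 in knockdown cells, an effect of 6.57, and Opalin had an effect of 7.14. The neuron list, higher in 13 and lower in 4 of 30 tested genes at SNM, was higher in 2 and lower in 20 of 30 at the neuronal stage. Cell cycle genes were lower at both, 36 of 47 at SNM and 37 of 46 later. Since each condition is 1 pool of RNA, how far separate differentiations would repeat these turns was not tested.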

How the data were processed

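RNA was measured on Illumina MouseWG-6 v2.0 arrays, 18 in all, 3 in each of 6 conditions. The deposited table, made by the authors, holds for each array an unnormalized intensity and a detection p-value for each of 45281 probes. A further 72 deposited per-sample columns, whose names match no sample label, were not used. Normalization steps of the study beyond its use of GeneSpring are not given in the sources used here.

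Intensities were background corrected with normexp, quantile normalized and log2 transformed (neqc, offset 16, from detection p-values) in limma 3.58.1 under R 4.3.3. One limma model over the 6 conditions gave the stage difference, the effect at each stage and the change within each cell type, with Benjamini-Hochberg adjustment over all probes tested. A call needs an adjusted p under 0.05 and 1.5-fold. Where one group was undetected on all 3 arrays, a lower bound of the fold is given. Precision is limited by 3 arrays per pool.

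A gene in a list is its brightest probe. Named genes are the 12 largest rises, falls and reversals, every reversal from higher to lower (all 3 kinds with an established array symbol), 6 fading effects each way, and up to 5 called members of each of 34 lists, and others are said to be chosen after their values were seen. Some genes that this rule names are not reported here. The members and lists were chosen with earlier results of these data known. The fit was tested on simulated data of this comparison, over 22125 probes: 93 of 100 changes of log2 size 1 and 99 of 100 of size 2 were recovered, with 8 false calls. The changed probes were all drawn from tested probes with a mean signal above the median. Recovery for genes with signals near background was therefore not tested. Alternatives varied background, scaling, detection filter, arrays, block, variance and fold.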

Additional observations from a re-analysis of the deposited data

Results flagged for a closer look

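The effect of the knockdown differed between the ES and SNM stages, by the test of the difference itself, at 2595 probes in the higher and at 2126 in the lower direction. The effect was called in opposite directions, lower at ES and higher at SNM, at 61 probes of 49 symbols. Of the 12 named, stage differences (log2) were 4.15 for Krt14, 3.82 for Ctsj and 3.30 for Slc25a18. The difference was 2.85 for Acta2, 2.60 for Ogn, 2.59 for Cryab and 2.59 for Plat. It was 2.39 for mt-Nd6, 2.32 for Actc1, 2.13 for Cav1, 2.08 for Arhgdib and 2.08 for Myl9. At 6 probes it ran from higher to lower, with -3.48 for LOC674912, -1.65 for Ahcy, -1.64 for Gsc, -1.35 for Mep1b, -1.32 for Dhdh and -1.25 for 4930565A21Rik.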

How the results depend on the processing

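With quantile normalization and no background correction, 1535 probes rose and 1029 fell, 1188 and 725 effects appeared as higher and lower, 14 reversed upward and 1 downward, and 24 and 7 faded from lower and from higher. With 75th percentile scaling 1481 rose, 1457 fell, 1106 and 988 appeared as higher and lower, 12 and 2 reversed, and 22 and 7 faded. With a background offset of 50, 1673 rose, 1175 fell, 834 appeared as lower, 19 and 1 reversed, and 29 and 12 faded. Over probes detected on all 12 arrays 1376 rose, 1685 fell, 945 and 1150 appeared as higher and lower, 1 reversed downward, and 35 and 22 faded. At a 2-fold minimum 1075 rose, 416 fell, 802 and 271 appeared, 2 and 0 reversed, and 8 and 4 faded. The methods' t-test after Benjamini-Hochberg called 19 probes higher and 59 lower at ES, against 91 and 203 unadjusted. The cause of these shifts was not tested. Leaving out 1 array gave 2540 to 2664 rises, 2064 to 2329 falls, 1799 to 1932 and 1378 to 1533 appearing effects, 52 to 67 and 6 to 8 reversals, and 92 to 126 and 49 to 90 fading effects, the 90 being without Control (ES) replicate 2. A model of the 12 arrays alone gave 2568 rises and 2098 falls. Of 186 named genes 160 kept their call under every alternative that tested them, and 26 lost it somewhere, 18 of them at the 2-fold minimum, with none reversing. Over probes detected on all 12 arrays 99 of the 186 were tested. Background or scaling ended the calls of Hoxb5, Hoxd4, Pax6, Neurog2, Fgf21, Cyp2b23, Rab39 and Dhdh, among others. Without 1 array that happened to Hbb-bh1 (0.53 without HPRT knockdown (SNM) replicate 1) and Cyc1 (-0.57 without HPRT knockdown (SNM) replicate 2). Of 34 list medians 17 moved by more than the spread between replicates under some alternative, several of them given beside their lists, and 2 changed sign, both over probes detected on all 12 arrays: floor plate, at -0.23, and Wnt, at -0.04. Medians of other lists moved to 0.10 over those probes for trophoblast (0.55 as reported), to -0.37 for FGF (from -0.13), and, with no detection filter, to 0.10 for neuropeptides (from 0.34) and -0.14 for proneural factors (from -0.36). With 75th percentile scaling they moved to 0.20 for lysosome (from 0.36) and -0.22 for hypoxia (from -0.10). Arrays of one number deviated together in part: of 18 pairs of one number, 10 had deviations correlated over 0.1, with a range of -0.134 to 0.499. Not every array correlated best with its own number. Pairs of HPRT knockdown (ES) and Control (SNM) gave 0.454, 0.0591 and 0.42 for arrays 1 to 3. Those of Control (ES) and HPRT knockdown (ES) gave -0.0995, 0.0206 and 0.101. The main model has no term for the array number. Between Control (SNM) and HPRT knockdown (SNM) all 3 pairs were correlated over 0.1, at 0.499, 0.108 and 0.496. Control (SNM) array 2, however, correlated more with HPRT knockdown (SNM) array 1, at 0.199. With the number as a replicate block 2627 probes rose and 2236 fell, 1889 and 1478 effects appeared, 62 and 6 reversed, and 99 and 55 faded. For genes near background the signal limits both the ES effect and the fold.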
